A study of Mus musculus with 12 samples.

Results

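The miR-15, miR-16 and miR-322 family and the miR-103 and miR-107 family are related groups of microRNAs known for restraining cyclins and cyclin-dependent kinases. Their members here are the 6 array entries mmu-miR-15a-5p, mmu-miR-15b-5p, mmu-miR-16-5p, mmu-miR-322-5p, mmu-miR-103-3p and mmu-miR-107-3p (the prefix for mouse is left out below), chosen by name out of the 576 entries on the array. All 6 were among the 118 microRNAs that were detected well enough to test. They were measured in LLC1 cells, a cultured line of mouse Lewis lung carcinoma, 4 h after irradiation, with 1 Agilent 1-colour array per sample. The groups were cells given 2 Gy at once, cells given 10 Gy at once, cells given a fractionated dose of 5x2 Gy, which adds up to 10 Gy, and untreated control cells, with 3 arrays each that the labels call biological replicates. All 4 groups are the same line in the same culture medium, and the labels name no genetic change.

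A microRNA guides an Argonaute protein to messenger RNAs that pair with its seed, the short stretch near its 5′ end, and lowers their translation and stability. The miR-15/16 family is known to target D-type cyclins, cyclin E and cyclin-dependent kinases and thereby to hold cells before S phase, and its Dleu2 locus is often lost in human chronic lymphocytic leukaemia. In human cells p53 is known to promote the processing of miR-16 and to raise miR-107, which targets the kinase CDK6.

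The mature sequences are shown because the families differ by where the same motif starts. They are taken from RefSeq (GRCm38.p6), are written 5′ to 3′, and carry the seed (bases 2 to 8) in capitals.
miR-15a-5p: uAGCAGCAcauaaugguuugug
miR-15b-5p: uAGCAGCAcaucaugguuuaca
miR-16-5p: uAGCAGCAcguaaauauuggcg
miR-322-5p: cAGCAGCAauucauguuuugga
miR-103-3p: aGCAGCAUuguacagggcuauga
miR-107-3p: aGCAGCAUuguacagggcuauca
The first 4 share the seed AGCAGCA, which starts at base 2. In miR-103-3p and miR-107-3p the letters AGCAGCA start at base 1, so their seed reads GCAGCAU. Read on the RNA strand alone, AGCAGCA starts at base 1 or 2 in 12 of the 1679 mature mouse sequences of the RefSeq table (0.715%), and GCAGCAU is the seed of 2 of them, miR-103-3p and miR-107-3p.

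The members of a family differ in their 3′ parts. Counted from 1 at the 5′ end, miR-103-3p and miR-107-3p differ only by G22C, with miR-103-3p given first. With miR-15a-5p given first, miR-15b-5p differs by A12C, G20A, U21C and G22A. The sequences of miR-15b-5p and miR-16-5p share their first 9 bases and differ at 8 later positions. A probe could in principle hybridise to a close relative, and the files used here do not give probe sequences, so whether miR-103-3p and miR-107-3p share signal was not tested.

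The genes lie on 6 chromosomes, some in neighbouring pairs (GRCm38.p6). Mir15a (mature arm chr14:61632075-61632096) and Mir16-1 (chr14:61631936-61631957) lie on the minus strand inside the long noncoding RNA gene Dleu2. Mir15b (chr3:69009775-69009796) and Mir16-2 (chr3:69009918-69009939) lie on the plus strand inside Smc4, which encodes a condensin subunit. The array entry for miR-16-5p therefore reports the product of 2 loci. Mir322 (chrX:53054306-53054327, minus strand) lies inside the noncoding gene C430049B03Rik together with Mir503. Mir103-1 (chr11:35782447-35782469, plus strand), Mir103-2 (chr2:131288103-131288125, plus strand) and Mir107 (chr19:34820700-34820722, minus strand) lie inside Pank3, Pank2 and Pank1, 3 genes for pantothenate kinases, the enzymes that start coenzyme A synthesis.

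The hairpins of Mir15b and Mir16-2 are shown, with the measured arm in capitals, because their products are compared within each array below. They are separated by 66 bases (RefSeq, GRCm38.p6, plus strand).
Mir15b: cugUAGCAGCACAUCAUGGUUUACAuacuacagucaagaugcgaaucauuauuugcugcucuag
Mir16-2: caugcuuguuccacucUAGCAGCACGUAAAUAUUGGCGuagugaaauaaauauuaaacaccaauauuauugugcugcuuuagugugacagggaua

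Levels are log2 values of the processed spot signal divided by the array's own 75th percentile, so that 0 stands for that percentile, and a floor was set at -4.06. Changes are the mean of the first-named group minus that of the other on that scale, and limma's test was adjusted by the Benjamini-Hochberg method over all 118 tested microRNAs with a threshold of 0.05. Levels of different members rest on different probes and are not set against each other. In cultured bulk cells, fewer cells holding a microRNA and less of it per cell cannot be told apart.

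The arrays differed in brightness and in detection. The scaling percentile was 316 to 897 intensity units on the 2 Gy arrays, 307 to 867 on the 10 Gy arrays, 1004 to 1102 on the 5x2 Gy arrays and 110 to 703 on the control arrays, and 48 to 137 microRNAs were detected per array. Slide 1 held all 2 Gy and control arrays and the 10 Gy replicates 1 and 2, and slide 2 held the 10 Gy replicate 3 and all 5x2 Gy arrays, each slide with its own scan. The 5x2 Gy group and the control group thus share no slide, and a fit with slide as a block links them only through the 10 Gy arrays. On 5 arrays of slide 1 (2 Gy replicates 1 and 3, 10 Gy replicates 1 and 2 and control replicate 2), miR-15b-5p and miR-16-5p stood apart from their levels on the other 7. Although the line is called a carcinoma, epithelial markers (the miR-200 family, miR-141-3p and miR-205-5p) were detected on 0 arrays. So were miR-451a, miR-144-3p, miR-150-5p and miR-223-3p of blood cells, while miR-142a-3p, another blood cell marker, was detected on 12.

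Across the families, 1 of 6 members rose and 0 fell in cells given 5x2 Gy relative to control, and no member passed the test after 2 Gy or 10 Gy. The member that rose was miR-107-3p, by 0.20 on the log2 scale, a change that was negative when the background was corrected by normexp, which also lowered the median of all 118 microRNAs, and 0.03 to 0.26 relative to that median over 8 alternative scalings and background corrections. All 6 members had positive changes after 5x2 Gy (0 to 6 did so under other scalings and background corrections), from 0.02 to 0.31 with a median of 0.20, while the median of all 118 microRNAs was 0.00 and 12.7% of them were called. The spread within groups differed widely: miR-15b-5p and miR-16-5p had pooled SDs of 0.29 and 0.26, against 0.04 for miR-107-3p and a median of 0.17 over the 48 microRNAs detected on all 12 arrays. The small SD of miR-107-3p owes something to the floor, because its dimmer probe was set to that value on 4 arrays.

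**Figure D1:**
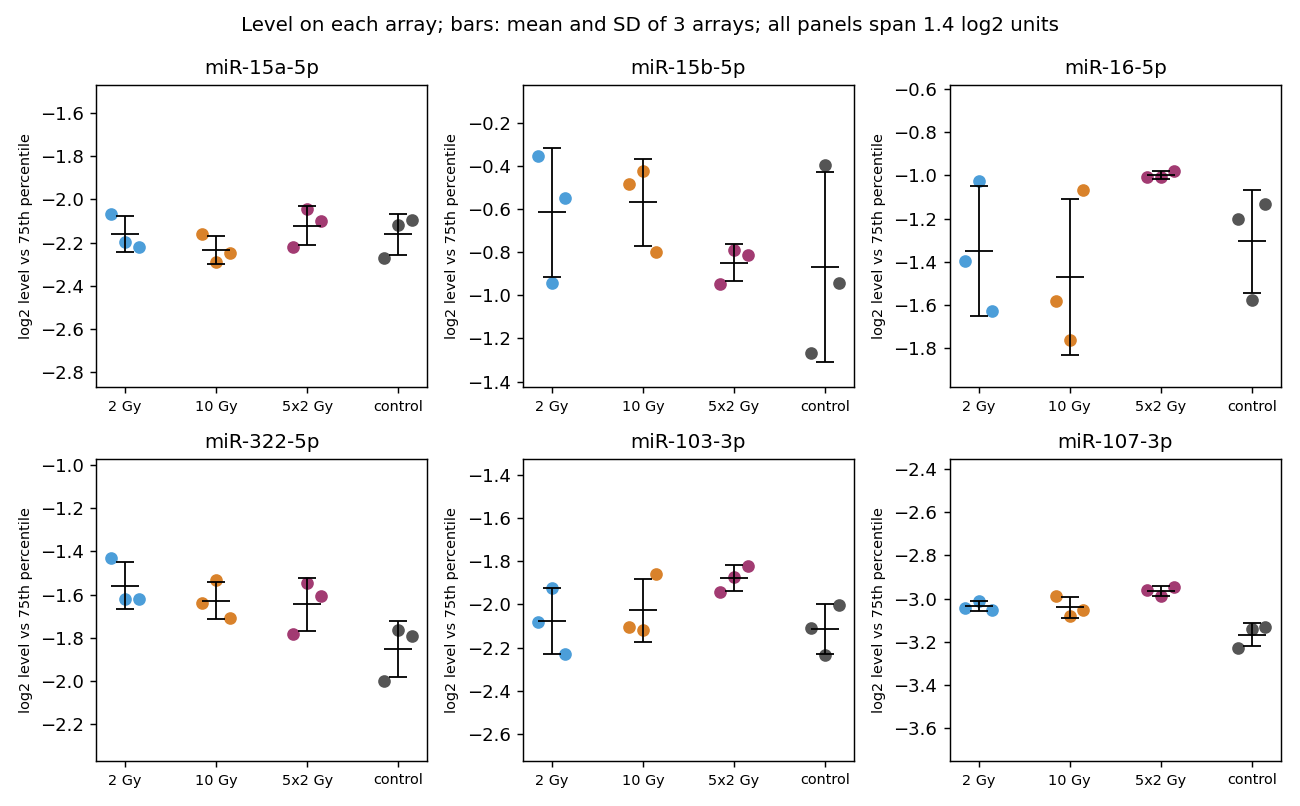
Log2 level of each family member on each of the 12 arrays, by group, relative to the array's 75th percentile; points are arrays, and bars are the mean and SD of 3 arrays. Every panel spans the same range, so the tight groups of miR-107-3p and the wide groups of miR-15b-5p and miR-16-5p can be compared by eye. The dimmer probe of miR-107-3p was set to the floor on 4 arrays, which makes those values equal and narrows its groups.

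For the comparison of 5x2 Gy with control, limma called 15 of all 118 microRNAs (12.7%), all of them higher, so the 1 of 6 members called stands near that share. At an unadjusted p under 0.05 there were 3 members (miR-107-3p, miR-103-3p and miR-322-5p) and 36 microRNAs in all. The groups did not overlap for 3 members, all higher after 5x2 Gy (miR-107-3p, miR-103-3p and miR-16-5p), against 28% of all tested microRNAs that were higher without overlap. For 0 members were they lower without overlap, against 5.08% of all.

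After 10 Gy, limma called 0 of 6 members and 1 of 118 microRNAs (0.847%), and the unadjusted p was under 0.05 for 2 members, miR-107-3p and miR-322-5p, and for 24 microRNAs in all. After 2 Gy it called 0 of 6 members and 0 of 118 microRNAs (0%), with 2 members, again miR-107-3p and miR-322-5p, and 11 microRNAs under an unadjusted 0.05. These were the same 2 members whose groups did not overlap, both higher than control, in each comparison, against 8.47% of all tested microRNAs after 10 Gy and 4.24% after 2 Gy. No member was lower without overlap, against 6.78% of all after 10 Gy and 2.54% after 2 Gy. Because the 3 comparisons share the control arrays, these members' values are set side by side and are not independent.

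**Figure D2:**
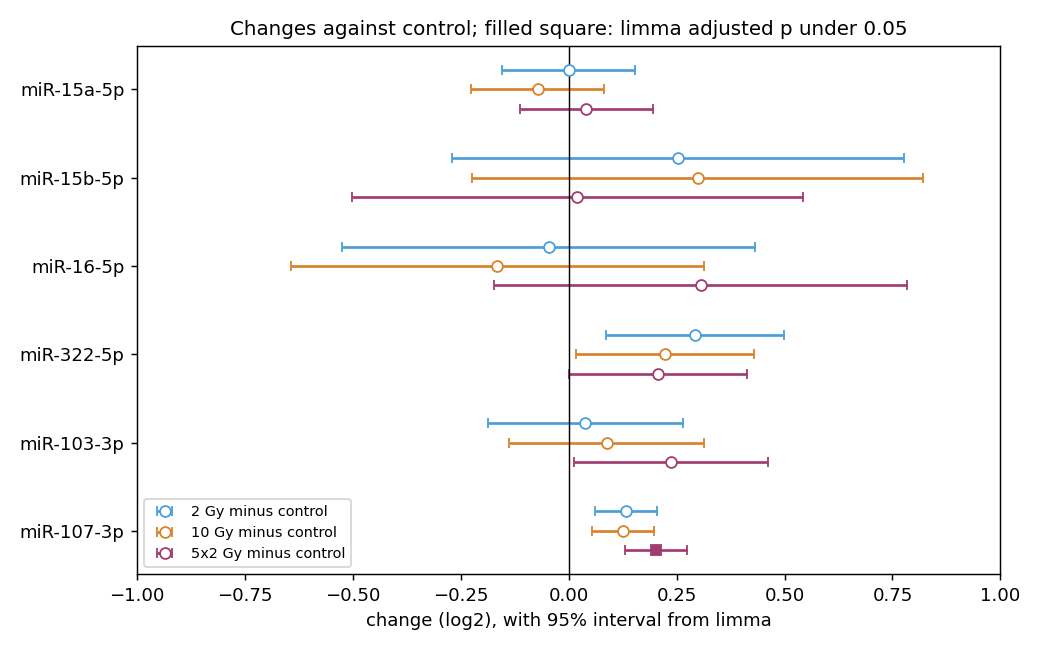
Change of each member against control on the log2 scale for 2 Gy, 10 Gy and 5x2 Gy, with limma's 95% interval; the filled square marks an adjusted p under 0.05. Only the change of miR-107-3p after 5x2 Gy, 0.20, is marked, and it is -0.40 when the background is corrected by normexp with an offset of 50, where the median of all 118 microRNAs is -0.44.

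miR-107-3p, the member whose human counterpart p53 is known to raise, had levels of -3.04, -3.01 and -3.05 on the 2 Gy arrays, -2.99, -3.08 and -3.05 on the 10 Gy arrays, -2.96, -2.99 and -2.94 on the 5x2 Gy arrays, and -3.23, -3.14 and -3.13 on the control arrays. All 9 irradiated arrays lay above all 3 control arrays, by a small margin between -3.13 in control and -3.08 in 10 Gy. The control levels were weakly measured: neither probe was detected on replicate 2, and on replicates 1 and 3 the dimmer probe was set to the floor. The change was 0.13 after 2 Gy (SE 0.03, limma adjusted p = 0.142) and 0.13 after 10 Gy (SE 0.03, limma adjusted p = 0.103), neither of which passed. After 5x2 Gy it was 0.20 (SE 0.03, 95% interval 0.13 to 0.27, limma adjusted p = 0.00623), a ratio of 1.15. The F test of limma over the 4 groups also passed for miR-107-3p, with an adjusted p of 0.0272, while it called 7 of 118 microRNAs (5.93%) and no other member.

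The call for miR-107-3p depended on the scaling, the floor, the slide, the background correction and single arrays. Median scaling gave a change of 0.02 after 5x2 Gy and ended the call, and a floor 4 times lower also ended it. With slide as a block the change after 5x2 Gy was 0.22 with a limma adjusted p of 0.254, and with array brightness as a covariate it was 0.19 with a limma adjusted p of 0.0252. Within slide 1 the change was 0.13 for both 2 Gy (limma adjusted p = 0.594) and 10 Gy (limma adjusted p = 0.358). Leaving out any 1 of the 5x2 Gy arrays gave 0.16 to 0.17 and ended the call. The call of the F test ended when any 1 array other than control replicate 3 was left out. Without control replicate 3 the change also passed after 2 Gy (0.15, limma adjusted p = 0.0235) and after 10 Gy (0.20, limma adjusted p = 0.00952), and without control replicate 2 after 2 Gy (0.24, limma adjusted p = 0.0427). When the background was corrected by normexp with an offset of 50 the change after 5x2 Gy was -0.40, where the median of all 118 microRNAs was -0.44, and with an offset of 1 it was -0.16, where that median was -0.21.

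Each level of miR-107-3p is the mean of 2 probes of unequal strength. Probe A_54_P1420 was detected on 11 of 12 arrays, all but control replicate 2, and averaged -2.16 in 2 Gy, -2.08 in 10 Gy, -2.04 in 5x2 Gy and -2.38 in control. Probe A_54_P1421 was detected on 6 of 12 arrays and averaged, before the floor, -3.91 in 2 Gy, -4.04 in 10 Gy, -3.89 in 5x2 Gy and -4.04 in control. On 4 arrays its signal lay under the floor and was set to it, which sets those values equal. The brighter probe alone differed from control by 0.22 for 2 Gy, 0.30 for 10 Gy and 0.34 for 5x2 Gy, the last with a limma adjusted p of 0.0178 when each microRNA was represented by its brightest probe. The dimmer one differed by 0.13, 0.00 and 0.15 for the same doses, so the probes did not give the same difference after 10 Gy.

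**Figure D3:**
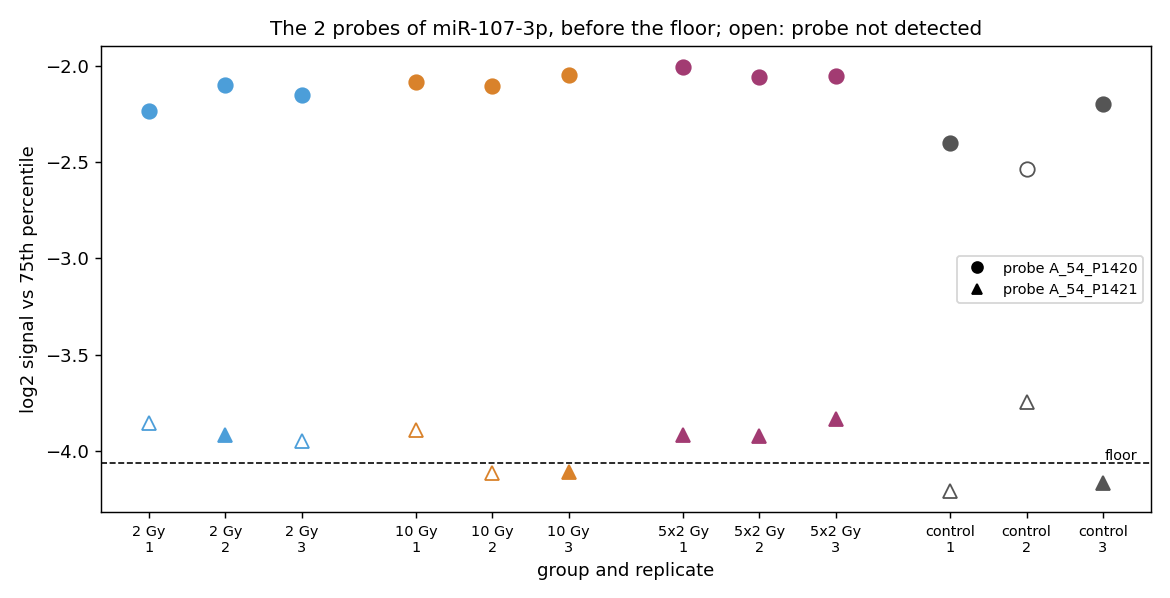
Log2 signal of the 2 probes of miR-107-3p on each array before the floor, relative to the array's 75th percentile; circles are probe A_54_P1420, triangles probe A_54_P1421, open symbols arrays where the probe was not detected, and the dashed line the floor at -4.06. The 2 lowest circles are control arrays, and 4 triangles lie under the floor, 2 of them 10 Gy and 2 of them control.

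miR-103-3p, which shares the seed of miR-107-3p and is made from 2 loci, had levels of -2.08, -1.92 and -2.23 after 2 Gy, -2.10, -2.12 and -1.86 after 10 Gy, -1.94, -1.87 and -1.82 after 5x2 Gy, and -2.11, -2.23 and -2.0 in control. The 5x2 Gy arrays lay above all control arrays, and the other irradiated groups overlapped with control. The change after 5x2 Gy was 0.24 (SE 0.10, limma adjusted p = 0.150), so it did not pass, and it was within 0.1 of 0 after 2 Gy and 10 Gy. With slide as a block it was -0.02, and with brightness as a covariate 0.02. The highest 10 Gy array was replicate 3, the only one of its group on slide 2.

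Within an array, the level of miR-107-3p minus that of miR-103-3p averaged -0.96 ± 0.13 after 2 Gy, -1.01 ± 0.16 after 10 Gy, -1.09 ± 0.06 after 5x2 Gy and -1.05 ± 0.12 in control (SD, n = 3 each). The difference of miR-107-3p from miR-103-3p had exact two-sided permutation p-values against control of 0.5, 0.9 and 0.9 for 2 Gy, 10 Gy and 5x2 Gy, where 3 arrays against 3 cannot go below 0.1. Across the arrays, each centred on its own mean, miR-103-3p and miR-107-3p differed by a root mean square of 0.11.

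miR-322-5p, the mouse counterpart of human miR-424 and known to target Cdc25a and cyclins, had levels of -1.43, -1.62 and -1.62 after 2 Gy, -1.64, -1.53 and -1.71 after 10 Gy, -1.78, -1.54 and -1.60 after 5x2 Gy, and -2.0, -1.76 and -1.79 in control. All 2 Gy and 10 Gy arrays lay above all control arrays, while the lowest 5x2 Gy array lay within the control range. Its changes were 0.29 after 2 Gy (SE 0.09, limma adjusted p = 0.261), 0.22 after 10 Gy (SE 0.09, limma adjusted p = 0.236) and 0.21 after 5x2 Gy (SE 0.09, limma adjusted p = 0.161). None passed, and 10 Gy minus 2 Gy lay within 0.1 of 0.

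Both probes of miR-322-5p gave positive differences from control at each dose, from 0.21 to 0.33. Within slide 1 its change was 0.29 after 2 Gy and 0.26 after 10 Gy, and with slide as a block it was 0.33 after 5x2 Gy (limma adjusted p = 0.403). With the processed signal replaced by Feature Extraction's summary signal per microRNA, miR-322-5p at 0.28 and miR-107-3p at 0.53 were both called after 5x2 Gy (limma adjusted p = 0.0417 each). That signal called 32 of all 118 microRNAs (27.1%) and moved their median by 0.42, so miR-322-5p lay at -0.14 and miR-107-3p at 0.12 relative to the median. Control replicate 1 was its lowest array, and leaving it out lowered the change after 2 Gy to 0.22.

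miR-15a-5p, from the Dleu2 locus, had levels of -2.07, -2.20 and -2.22 after 2 Gy, -2.16, -2.29 and -2.25 after 10 Gy, -2.22, -2.04 and -2.10 after 5x2 Gy, and -2.27, -2.12 and -2.10 in control. All groups overlapped, and its 12 arrays spanned 0.25. Its changes from control lay within 0.1 of 0 at each dose. In the main setting the 95% intervals ran from -0.23 to 0.19 over the 3 comparisons, a ratio between 0.855 and 1.14. They do not cover the choice of processing. Over the other settings the change after 5x2 Gy ran from -0.45 to 1.81. Relative to the median of all microRNAs it ran from -0.30 to 0.40 over 8 scalings and background corrections. Neither probe of miR-15a-5p was detected on control replicate 2.

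miR-15b-5p, from the Smc4 locus, had levels of -0.35, -0.94 and -0.55 after 2 Gy, -0.48, -0.43 and -0.80 after 10 Gy, -0.95, -0.79 and -0.81 after 5x2 Gy, and -1.27, -0.39 and -0.94 in control. Its control arrays alone spanned nearly the whole range of the 12 arrays, 0.91, and every irradiated group overlapped with them. The changes were 0.25 after 2 Gy (limma adjusted p = 0.783), 0.30 after 10 Gy (limma adjusted p = 0.556) and 0.02 after 5x2 Gy (limma adjusted p = 1). Leaving out 1 array at a time moved the change after 2 Gy between 0.05 and 0.52 and that after 10 Gy between 0.10 and 0.55, so single control arrays decide its size. The upper values were without control replicate 2 and the lower values without control replicate 1.

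miR-16-5p, the most studied cyclin D regulator of the family, had levels of -1.40, -1.03 and -1.63 after 2 Gy, -1.58, -1.76 and -1.07 after 10 Gy, -1.01, -1.01 and -0.98 after 5x2 Gy, and -1.20, -1.58 and -1.13 in control. The 3 arrays of 5x2 Gy lay close together and above all arrays of the other groups. The changes were -0.17 after 10 Gy (limma adjusted p = 0.738) and 0.31 after 5x2 Gy (SE 0.21, limma adjusted p = 0.368), and the change after 2 Gy lay within 0.1 of 0. None passed, and the 5x2 Gy change was -0.30 with slide as a block and -0.17 with brightness as a covariate.

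The 5 arrays where miR-15b-5p was highest were the 5 where miR-16-5p was lowest. The level of miR-15b-5p minus that of miR-16-5p, taken within each array, was 1.04, 0.09 and 1.08 after 2 Gy, 1.10, 1.34 and 0.27 after 10 Gy, 0.06, 0.22 and 0.17 after 5x2 Gy, and -0.06, 1.18 and 0.19 in control. The 5 arrays at 1.04 to 1.34 were 2 Gy replicates 1 and 3, 10 Gy replicates 1 and 2 and control replicate 2, and the other 7 lay at -0.06 to 0.27, with a gap of 0.78 between. The 5 arrays came from 3 of the 4 groups, and each of these groups had arrays on both sides of the gap.

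**Figure D4:**
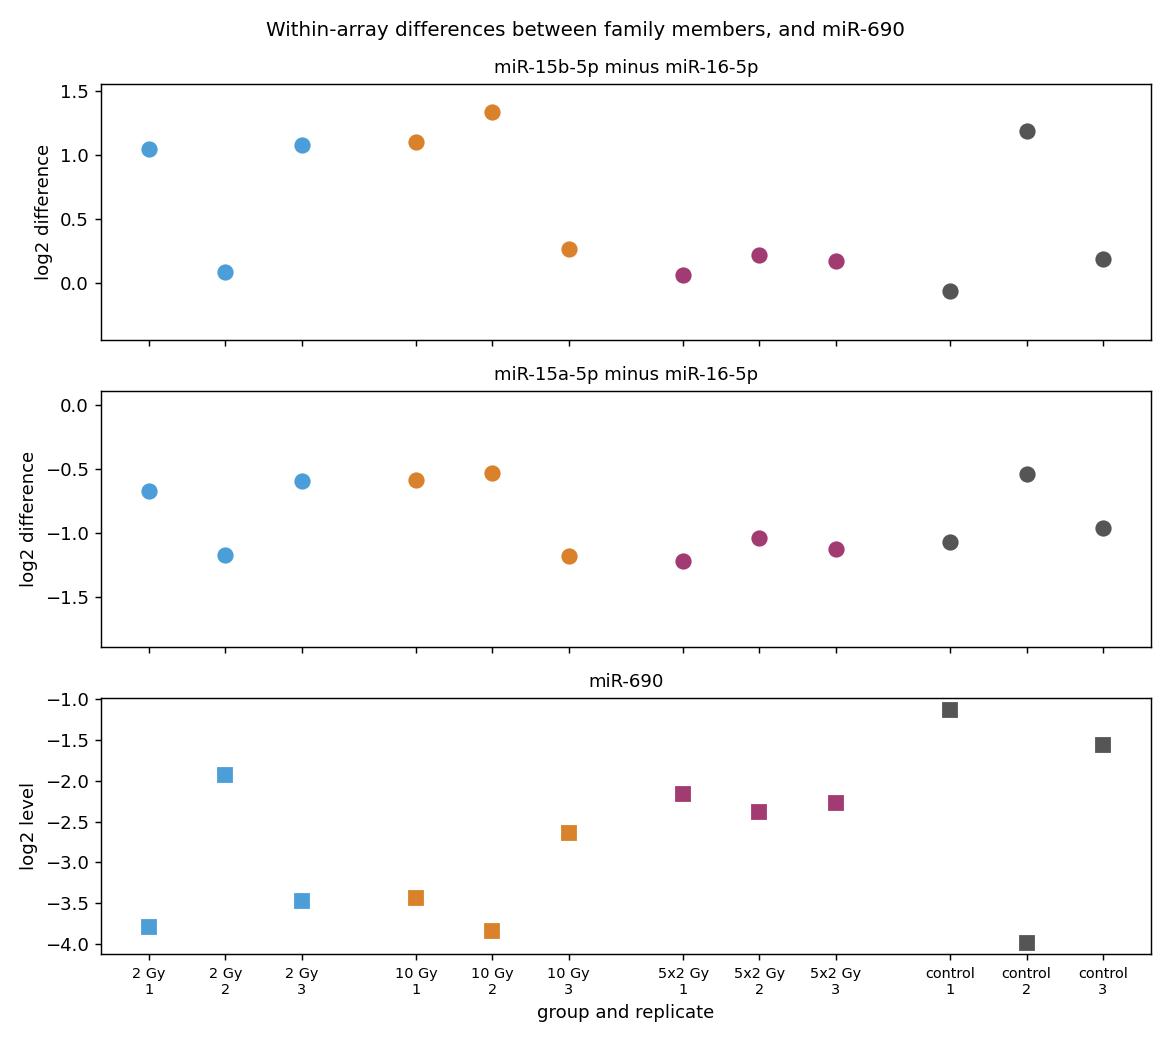
Within-array difference of miR-15b-5p minus miR-16-5p (top) and of miR-15a-5p minus miR-16-5p (middle), and the level of miR-690 (bottom), in log2 units for each of the 12 arrays. The same 5 arrays, 2 in 2 Gy, 2 in 10 Gy and 1 in control, are high in the upper panels and low in the bottom one. miR-690 was detected on 9 of 12 arrays.

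The same 5 arrays stood above the gap for all 4 combinations of the 2 probes of miR-15b-5p and the 2 probes of miR-16-5p, with gaps of 0.68 to 0.86. They also stood above the gap for miR-15a-5p minus miR-16-5p (gap 0.29) and for miR-15b-5p minus miR-15a-5p (gap 0.22). These differences reuse the values of miR-16-5p and miR-15b-5p, so they add no separate evidence. miR-15a-5p itself ranged from -2.29 to -2.07 on the 5 arrays and from -2.27 to -2.04 on the other 7. On these 5 arrays miR-15b-5p ranged from -0.55 to -0.35 and miR-16-5p from -1.76 to -1.40, and on the other 7 from -1.27 to -0.79 and from -1.20 to -0.98. The split was drawn from the difference of miR-15b-5p and miR-16-5p, so their ranges add no separate evidence either. Without the 5 arrays, the remaining 2 Gy array and 10 Gy array had miR-15b-5p at -0.94 and -0.80 and the remaining control arrays at -1.27 and -0.94. The remaining 2 Gy array and the nearer control array thus differed by less than 0.01, and no test was made on the arrays of this split.

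Of the values that follow, miR-690 and the mean log2 level of its list kept to the same split, and the ranges of the others overlapped. All 5 arrays were on slide 1, but so were 2 Gy replicate 2 and control replicates 1 and 3. The scaling percentile was 110 to 388 on the 5 arrays against 346 to 1102 on the other 7. miR-690, an entry of the list often traced to tRNA, rRNA or GC-rich sequence, was at -3.98 to -3.43 on the 5 arrays and at -2.63 to -1.13 on the other 7. The mean log2 level of the 6 tested entries of that list, miR-690 among them, was -2.03 to -1.71 against -1.51 to 0.06. Their summed linear level was 5.68 to 9.06 against 6.45 to 15.2, and 48 to 76 microRNAs were detected against 75 to 137. The part of these array values in the split was not tested. Nor was their part in the difference between miR-15b-5p and miR-16-5p.

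By group, the summed level of that list was 6.52 to 8.11 in 2 Gy, 5.68 to 6.63 in 10 Gy, 6.56 to 7.71 in 5x2 Gy and 8.75 to 15.2 in control, and 0 of its 6 tested entries passed the test in any of the 6 comparisons. The list's mean log2 level, which kept to the split above, was also used as a covariate, a choice made after seeing the data. With it the change of miR-15b-5p was -0.16 after 2 Gy and -0.20 after 10 Gy and that of miR-16-5p after 10 Gy was 0.16, each with the sign turned. With that covariate 3 of 6 members and 41 of all 118 microRNAs (34.7%) were called after 5x2 Gy, 29 of the 41 higher and 12 lower. Of the members, miR-107-3p at 0.19 (limma adjusted p = 0.00916) and miR-103-3p at 0.32 (limma adjusted p = 0.0424) were higher, and miR-15b-5p at -0.32 (limma adjusted p = 0.0168) was lower than in control.

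Group by group, miR-15b-5p minus miR-16-5p averaged 0.73 ± 0.56 after 2 Gy, 0.90 ± 0.56 after 10 Gy, 0.15 ± 0.08 after 5x2 Gy and 0.44 ± 0.66 in control (SD, n = 3 each). Over 24 exact two-sided permutation tests of 4 within-array differences in 6 comparisons, the smallest p was 0.1, the smallest that 3 arrays against 3 allow, and no adjusted p was under 0.873. Among the 15 pairs of members, miR-15b-5p and miR-16-5p had the largest root mean square difference over the 12 arrays, each centred on its own mean, at 0.51.

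Fractionation at the same total dose was compared as 5x2 Gy minus 10 Gy, where limma called 0 of 6 members and 3 of 118 microRNAs (2.54%), and the unadjusted p was under 0.05 for 1 member, miR-107-3p, and 18 microRNAs in all. miR-16-5p had the largest difference, 0.47 (SE 0.21, limma adjusted p = 0.327), and was the 1 member whose groups did not overlap, higher after 5x2 Gy, against 25.4% of all microRNAs (0 were lower, against 0.847%). Its difference was 0.07 within slide 2, that is, against 10 Gy replicate 3 alone, and is given without a test. miR-15b-5p differed by -0.28 (limma adjusted p = 0.656), or by -0.05 within slide 2, and miR-103-3p by 0.15 (limma adjusted p = 0.571), or by -0.02 within slide 2.

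The remaining comparisons were of the irradiated groups with the 2 Gy dose. In 10 Gy minus 2 Gy the members' changes ranged from -0.12 to 0.05 with 0 called, no groups without overlap (4.24% of all microRNAs were higher and 1.69% lower without overlap) and 0 members under an unadjusted 0.05, where limma called 0 of 118 microRNAs (0%) and 2 were under an unadjusted 0.05. In 5x2 Gy minus 2 Gy they ranged from -0.23 to 0.35 with 0 called and 0 under an unadjusted 0.05, where limma called 5 of 118 microRNAs (4.24%) and 25 were under an unadjusted 0.05. The groups did not overlap for 2 members there, miR-16-5p and miR-107-3p, both higher after 5x2 Gy, against 24.6% of all microRNAs, and for 0 were they lower, against 5.93%.

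Relatives of the families on the array were mostly below detection. Of 3 entries with the same or nearly the same seed, miR-195a-5p and miR-497a-5p, which share the seed AGCAGCA, were detected on 0 arrays. The third, miR-503-5p, is a neighbour of miR-322-5p in C430049B03Rik and is known to target cyclins. Its sequence is shown because its seed differs from that of miR-15a-5p, given first, only by A8G.
miR-503-5p: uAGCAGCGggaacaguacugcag
It was detected on 7 of 12 arrays, with changes from control of 0.07 for both 2 Gy and 5x2 Gy and -0.11 for 10 Gy, none of which passed the test (limma adjusted p from 0.666 to 0.981).

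The cluster around Mir322 had 9 entries on the array besides the arms of Mir322 itself, of which 2 were tested, miR-503-5p and miR-450a-5p, and 0 passed in any of the 6 comparisons. miR-450a-5p lay at the floor on 10 of 12 arrays, so its changes have no order. The other arms of the family hairpins had 4 entries on the array, miR-15a-3p, miR-15b-3p, miR-16-1-3p and miR-322-3p, and all were detected on 0 arrays, so arm use could not be measured.

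Other microRNAs known to restrain cyclins and cyclin-dependent kinases or to respond to p53 numbered 30 on the array, of which 19 were tested. In 5x2 Gy minus control 6 of the 19 rose and 0 fell, with a median change of 0.26. Of all 118 microRNAs 15 (12.7%) were called there, all higher, with a median change of 0.00. The largest was miR-34b-5p, a direct p53 target in mouse cells, at 1.21 (limma adjusted p = 0.000888), followed among those that passed by miR-26a-5p at 0.44, miR-24-3p at 0.32, let-7g-5p at 0.24, let-7c-5p at 0.22 and let-7i-5p at 0.18 (limma adjusted p from 0.0354 to 0.0453). miR-34c-5p, from the same transcript as miR-34b-5p, changed by 0.96 without passing (limma adjusted p = 0.161), and miR-29c-3p by 0.72 (limma adjusted p = 0.0515). In 10 Gy minus control miR-34b-5p rose by 0.85 (limma adjusted p = 0.0239) as the 1 of 19 that passed, which was also the 1 of all 118. In 2 Gy minus control 0 of 19 and 0 of all 118 passed, with miR-34b-5p at 0.55 (limma adjusted p = 0.142). With slide as a block 0 of the 19 passed after 5x2 Gy, where 1 of 118 microRNAs did. The median change of the 19 was then 0.25, and miR-34b-5p was at 1.31 (limma adjusted p = 0.0748). After 10 Gy it was at 0.89 with that block (limma adjusted p = 0.0879).

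The change of miR-107-3p after 5x2 Gy was thus about the size of that of the let-7 members and well under that of miR-34b-5p. Of 10 tested microRNAs tied to proliferation, 1 rose after 5x2 Gy, miR-25-3p by 0.40 (limma adjusted p = 0.0379), and the median of the list was -0.02. Of 4 tested fibroblast and endothelial markers, 2 rose after 5x2 Gy, miR-199a-5p by 0.33 and miR-214-3p by 0.46, and of 2 tested blood cell entries 0 passed. These counts stand beside 15 of all 118 microRNAs (12.7%) called higher. With slide as a block none of the 3 that rose in these lists passed, with miR-25-3p at 0.43, miR-199a-5p at 0.29 and miR-214-3p at 0.71 (limma adjusted p from 0.254 to 0.328). In 5x2 Gy minus 10 Gy and in 10 Gy minus 2 Gy 0 of the 19 passed, and in 5x2 Gy minus 2 Gy miR-34b-5p alone did, by 0.67 (limma adjusted p = 0.0259), or by 0.76 with slide as a block (limma adjusted p = 0.552).

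Likeness over the 12 arrays was measured as the root mean square difference of levels, each microRNA centred on its own mean, among the microRNAs detected on all 12 arrays. miR-15b-5p was most like miR-21a-5p at 0.09, then miR-221-3p at 0.14 and miR-23a-3p at 0.18, where the median over all others was 0.33. miR-16-5p was most like miR-29b-3p and miR-93-5p, both at 0.14, and miR-106b-5p at 0.16, where the median was 0.31. These lists share no name, and neither holds the other member.

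Of the other members, miR-103-3p, miR-107-3p and miR-322-5p had let-7 entries among the 3 most like them, and miR-15a-5p had none. miR-103-3p was most like miR-106b-5p at 0.07, let-7g-5p at 0.09 and let-7i-5p at 0.10. miR-107-3p was most like let-7g-5p and let-7i-5p, both at 0.08, and miR-199b-5p at 0.09. miR-322-5p was most like let-7f-5p at 0.09, then miR-130a-3p and let-7a-5p, both at 0.12, and miR-15a-5p was most like miR-199b-5p at 0.08, then miR-31-3p and miR-130a-3p, both at 0.09. For these members the median over all others lay between 0.19 and 0.24. The measure is also small for any microRNAs that both vary little. The SDs of miR-107-3p and miR-15a-5p over the 12 arrays were 0.08 each, so their small values need not mean a shared pattern. The 12 points of each measure share array brightness and slide.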

How the data were processed

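Per the submitters' processing notes, Agilent Feature Extraction 10.7.3.1 turned the scans into the deposited linear spot intensity values and spot flags (control, outlier, above background, saturated), which have no unit, per the file headers. The authors' deposited table holds log2 values, which equal the log2 of the processed signal (at least 1) plus a constant per array (-0.27 to 0.51), with column medians from -0.19 to 1.14.

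Control and outlier spots were dropped, spots were averaged per probe, and values were scaled by the array's 75th percentile over the 78 probes seen on every array. The floor was 0.0598, log2 was taken, and probes detected on at least 3 arrays were averaged. A probe counted as detected with over 0.5 of its spots above background, and a microRNA was tested if detected on all 3 arrays of a group. limma 3.58.1 in R 4.3.3 was fitted to 12 arrays without covariates (8 residual degrees of freedom), with two-sided tests. It was tested on simulated data. Normexp alternatives used the median signal and background, since the files hold no mean signal. Pairing was checked by correlations between arrays of different groups, on centred and not on raw levels. They were -0.93 to 0.85 (median -0.03) over 18 pairs with the same replicate number. Over 36 pairs with unlike numbers they were -0.78 to 0.86 (median -0.01). Replicate numbers were therefore not used to pair samples. Columns of other samples numbered 0. Named microRNAs are the 6 members, the entries of the lists that passed or changed most, and the 3 most like each member. The members and lists were chosen with earlier results of these data known. The number of arrays limits the precision.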

Additional observations from a re-analysis of the deposited data

How the results depend on the processing

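After 5x2 Gy minus control the count of members called, 1 in the main setting, was 6 with the percentile over all probes, with no scaling and with the authors' values. It was 2 with the total gene signal (32 of all 118 called), 3 with the level of the list around miR-690 as a covariate (chosen after seeing the data; 41 of all 118), and 0 with median scaling, normexp at either offset, a floor 4 times lower, only microRNAs detected on all 12 arrays (which leaves out miR-107-3p) or slide as a block. It ranged from 0 to 1 with 1 array left out. The scalings that called all 6 also moved the median of all 118 by 1.42, 1.41 and 1.68, and they called 102, 86 and 84 microRNAs in all. Relative to the median of all microRNAs, miR-107-3p changed by 0.03 to 0.26 over 8 scalings and background corrections. With 1 array left out miR-107-3p changed by 0.16 to 0.25 after 5x2 Gy. Its change was 0.02 with median scaling (limma adjusted p = 0.888) and 0.24 (limma adjusted p = 0.0724) with a floor 4 times lower.

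The count was 1 with quantile scaling after 2 Gy (2 of all 118 called) and after 10 Gy (4 of all), and with brightness as a covariate after 10 Gy (26 of all). With 1 array left out it ranged from 0 to 1 in both comparisons, each time through miR-107-3p without control replicate 3, and after 2 Gy also without control replicate 2. With the percentile over all probes it was 3 in 5x2 Gy minus 10 Gy and 6 in 5x2 Gy minus 2 Gy, where 90 and 109 of all 118 were called and their medians were 1.09 and 1.34. The count of the F test, 1 in the main setting, was 4 with the percentile over all probes (86 of all 118) and 0 with median scaling, no scaling, either normexp, the authors' values, the total gene signal, the brightest probe, either other floor, only microRNAs detected on all 12 arrays, all entries, slide as a block, the replicate block or brightness. It ranged from 0 to 1 with 1 array left out.

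Over 36 changes of members (6 members in 6 comparisons), 134 of 1128 values under an alternative turned sign, 32 of them among the 72 with normexp. Relative to the median of all microRNAs, which normexp also moved, 17 of those 72 turned, and 156 of all 1128. The turned changes are given one by one only where the main value was over 0.1, as fitted and not relative to the median. Among these, miR-16-5p after 10 Gy turned to 0.33 with the percentile over all probes, 0.42 with no scaling and 0.32 with the authors' values, and miR-15b-5p in 5x2 Gy minus 10 Gy to 0.87, 0.90 and 0.67 with the same settings and 0.031 with brightness. Median scaling turned miR-322-5p after 5x2 Gy to -0.0082 and miR-15a-5p in 5x2 Gy minus 10 Gy to -0.016, and quantile scaling turned miR-15a-5p to -0.040 and miR-103-3p to -0.0089 in that comparison. Normexp with an offset of 50 gave -0.15 for miR-107-3p after both 2 Gy and 10 Gy, -0.012 for miR-322-5p after 10 Gy and, after 5x2 Gy, -0.049 for miR-16-5p, -0.22 for miR-322-5p, -0.30 for miR-103-3p and -0.40 for miR-107-3p. In 5x2 Gy minus 10 Gy it gave -0.22 for miR-15a-5p and -0.17 for miR-103-3p. With an offset of 1 the values were -0.028 for miR-107-3p after 2 Gy, -0.037 for miR-103-3p and -0.16 for miR-107-3p after 5x2 Gy, and -0.064 for miR-15a-5p and -0.022 for miR-103-3p in 5x2 Gy minus 10 Gy. Slide as a block turned miR-16-5p to -0.30 and miR-103-3p to -0.016 after 5x2 Gy, and miR-103-3p to -0.020 in 5x2 Gy minus 10 Gy, as within slide 2. Brightness turned miR-16-5p after 5x2 Gy to -0.17. The list covariate turned miR-15b-5p to -0.16 after 2 Gy and -0.20 after 10 Gy, and miR-16-5p after 10 Gy to 0.16. In 5x2 Gy minus 2 Gy miR-15b-5p turned to 1.23 with the percentile over all probes, 1.00 with no scaling, 0.82 with the authors' values, 0.11 with slide as a block and 0.091 with brightness. There miR-16-5p turned to -0.25 and miR-103-3p to -0.054 with slide as a block, and miR-103-3p to -0.16 with normexp at an offset of 50. In 10 Gy minus 2 Gy miR-16-5p turned to 0.20 with the percentile over all probes and ranged from -0.32 to 0.041 with 1 array left out. The cause of these turns was not tested.

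With the replicate block, although the numbers gave no sign of pairing, miR-107-3p after 5x2 Gy was 0.20 (limma adjusted p = 0.0169) and 1 member was called.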
